A study of Mus musculus with 43 samples.

Results

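Runx1, Runx2 and Runx3, the DNA-binding subunits of core-binding factor, and Cbfb, their shared partner subunit, were examined in fetal and newborn mouse gonads. These 4 genes were set beside 18184 genes measured in all. All probe sets that the array's annotation assigns to 1 of these genes alone were taken, which gave 9 of the 45007 probe sets tested. Runx1 had 6 of them, Runx3 had 2 and Cbfb had 1. No probe set of the annotation used here named Runx2, so 3 of the 4 genes have values, and Runx2 was not analysed here beyond its promoter sequence. The probe sets were taken by annotation alone, whereas the genes were chosen with earlier results of these data known. The study had already listed Runx1, from these arrays, among candidate anti-testis genes acting independently of Foxl2 and Wnt4.

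RUNX proteins bind DNA through a conserved Runt domain, and CBFB, which does not bind DNA itself, raises their affinity for it. The complex activates or represses its targets depending on the cofactors it meets, among them the Groucho-related TLE proteins, histone deacetylases and the acetyltransferases EP300 and CREBBP. RUNX1 is best known as a regulator of the first blood stem cells, RUNX2 of bone formation, and RUNX3 of T cells and sensory neurons. In the fetal gonad RUNX1 is also known from the supporting cells, the lineage that forms pre-granulosa cells in the ovary and Sertoli cells in the testis, and there it is a marker of the ovarian fate.

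The data comprised 43 Affymetrix mouse whole-genome arrays in 15 groups, each array holding amplified RNA from 1 mouse. Groups had 3 arrays, except the 2 groups at embryonic day 15 (E15), which had 2. The study compared testes, reference ovaries and ovaries that lacked or carried altered forms of Foxl2, a forkhead factor of granulosa cells, Wnt4, a signalling ligand of the fetal ovary, and Kit, the receptor through which stem cell factor keeps germ cells alive. Testes were taken at E13 and at birth (P0), and per the study's methods the newborn testes came from Wnt4-null mice. Reference ovaries were taken at E13, E16 and P0. Those of E13 were labelled Foxl2+/- whereas the methods describe wild-type littermates, so they are called controls here, and those of E16 and P0 are called wild-type. Foxl2-null ovaries were taken at E13, E16 and P0, and Foxl2+/- ovaries at E16. Wnt4-null ovaries of E15 were set against Wnt4+/- ovaries of the same background, which per the methods was another mixture than that of the remaining ovaries. At P0 there were also ovaries homozygous for the hypomorphic Kit allele Wv and carrying 1 null copy of Foxl2, Kit Wv/Wv ovaries that were Foxl2-null, Wnt4-null ovaries carrying 1 null copy of Foxl2, and ovaries null for both Wnt4 and Foxl2, called double-null. Per the methods, all ovaries other than those of E15 came from mice of a C57BL/6J, NIH-Swiss/BC and CD1 mixture. The methods give no background for the testes. The P0 comparisons of the Kit and Wnt4 mutants with wild-type ovaries therefore also differ by 1 copy of Foxl2.

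Signals are given as multiples of the mean intensity of an array, so that 1 equals the mean probe set. Log2 changes are on the scale of log2(signal + 0.01), given with their standard error, and understate changes of weak probe sets. The adjusted p-values come from 1 limma fit of all 43 arrays adjusted by Benjamini-Hochberg across the whole table, and a probe set is called at an adjusted p under 0.05. Correlations of arrays within a group ranged from 0.922 to 0.982, the lowest in the Foxl2-null ovaries of E13. The Foxl2 signal checked the labels. It lay between 5.31 and 16.8 in the reference ovaries of E13, E16 and P0 and between 0.606 and 2.77 in the single Foxl2-null ovaries, with no overlap at any stage. In Kit Wv/Wv ovaries that were Foxl2-null it was 3.56 to 7.64, which reaches into the reference range though not into the 19.5 to 32.6 of Kit Wv/Wv ovaries, and in double-null ovaries it was 0.682 to 0.826, below the 5.13 to 5.90 of Wnt4-null ovaries. A second, weaker Foxl2 probe set was at or below 0.00635 in all Foxl2-null groups. In whole gonads, fewer cells of a type and less RNA per cell cannot be told apart.

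The 3 Runx genes share a sequence feature at a start site, which is shown because it sets them apart from Cbfb. RefSeq promoter windows (build GRCm38.p6, 250 bases before to 50 bases after each start) were available for all 4 genes, 2 each for Runx1 and Runx3 and 1 each for Runx2 and Cbfb. The upstream Runx1 window (chr16:92826025-92826324, minus strand), the Runx2 window (chr17:44814578-44814877, minus strand) and the upstream Runx3 window (chr4:135120395-135120694, plus strand) each held a pair of RUNX core words, ACCACA, separated by GA. The cores are in capitals in these stretches of 24 bases, read on the gene's strand.
Runx1: aaacaACCACAgaACCACAagttg
Runx2: aaacaACCACAgaACCACAagtgc
Runx3: cctcaACCACAgaACCACAaggcc
The Runx1 stretch is chr16:92826028-92826051 and begins at base 24 after the start. That of Runx2 is chr17:44814586-44814609 and begins at base 19, and that of Runx3 is chr4:135120506-135120529 and begins at base -139, before the start. A single core on either strand (ACCACA or TGTGGT) was found in 5506 of 32851 windows of the same length, or 16.8%. The pair ACCACAGAACCACA, a word taken from these windows and searched on both strands, was found in 4 of them, or 0.0122%, and the fourth was that of the predicted gene Gm16225. That window, on the minus strand, held the pair in reverse only, and whether it overlaps the Runx3 site was not checked. Neither the downstream windows of Runx1 and Runx3 nor the Cbfb window held a core. The forkhead core word TGTTTA, present in 13.4% of windows on either strand, occurred once in the upstream Runx1 window and in none of the other windows of these genes. The TCF/LEF core word CTTTGA, present in 16% of windows, occurred once in the Runx2 window alone among them. These are matches of letters, and no binding was measured.

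By its strongest probe set, 1422864_at, which is taken as the reference for the gene, Runx1 was lower in every testis than in every ovary. It read 0.15, 0.215 and 0.22 in the testes of E13 and 0.131, 0.156 and 0.213 in the testes of P0. In the 37 ovaries the lowest signal was 0.456, the median 3.35 and the highest 6.22. No ovary fell into the range of the testes here, whereas for 4 of the 6 Runx1 probe sets, all but this and 1422865_at, double-null ovaries reached into it. For 1427650_a_at ovaries of other groups did so too, among them wild-type ovaries of P0 at 0.160 and 0.189.

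In descending order of the group mean, Runx1 stood at 5.27 in Foxl2-null ovaries of P0, 4.81 in Foxl2-null ovaries of E16, 4.72 in Kit Wv/Wv ovaries and 4.59 in Kit Wv/Wv ovaries that were Foxl2-null. The Wnt4+/- ovaries of E15 followed at 3.97, then the wild-type ovaries of E16 at 3.70, the Foxl2+/- ovaries at 3.69, the wild-type ovaries of P0 at 3.30 and the controls of E13 at 3.06. Below these were the Wnt4-null ovaries of E15 at 2.62, the Foxl2-null ovaries of E13 at 2.61 and the Wnt4-null ovaries of P0 at 2.17. Neighbours in this order had overlapping arrays down to the Wnt4-null ovaries of P0, although the controls of E13 and the Wnt4-null ovaries of E15 met only at 2.84, the lowest array of the one and the highest of the other. The next group, the double-null ovaries at 0.999, overlapped neither with the group above nor with the testes below, which stood at 0.195 at E13 and 0.167 at P0 and overlapped with each other.

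**Figure D1:**
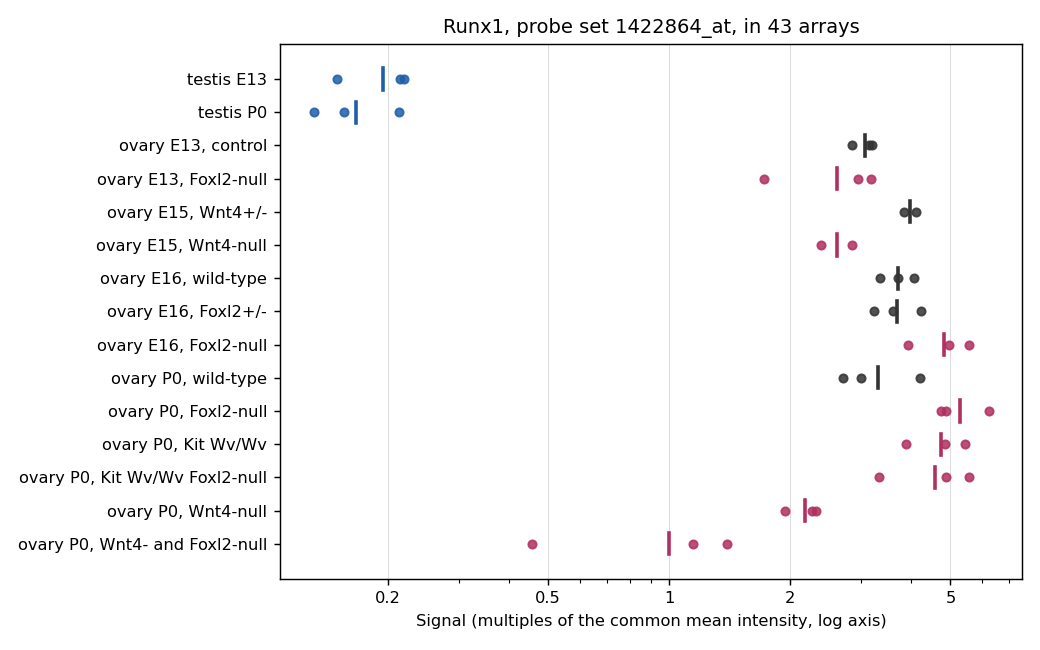
Runx1 signal of probe set 1422864_at (multiples of the mean array intensity, log axis) in each of the 43 arrays by group, where points are arrays, bars are group means, testes are blue, null or Kit mutant ovaries red and other ovaries grey. All testes lie at or below 0.22, the double-null ovaries between 0.456 and 1.40, and every other ovary at 1.72 or above.

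Between testes and ovaries of E13, Runx1 was 3.06 ± 0.191 (SD, n = 3) in ovaries, with arrays at 3.14, 2.84 and 3.20. The testes were at 0.195 ± 0.0391 (SD, n = 3). The log2 change in testes was -3.92 ± 0.26 (limma, adjusted p = 5.9e-14), a 15.2-fold lower level. The other Runx1 probe sets differed in how strongly they showed it. Of the 6, 5 fell in testes, where 3.23% of all probe sets fell. The second strongest, 1422865_at, fell by 3.51 ± 0.28 on the log2 scale (adjusted p = 6.0e-12), from 1.58 to 0.138. The probe sets 1440878_at, 1452530_a_at and 1452531_at had log2 changes of -3.11 ± 0.40, -2.89 ± 0.35 and -3.66 ± 0.43, all called, and their testis signals were at or below 0.0827. The exception was 1427650_a_at, at 0.246 in ovaries and 0.166 in testes (log2 change -0.53 ± 0.25, adjusted p = 0.25).

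The difference was there again at birth, where per the methods the testes came from Wnt4-null mice and the ovaries were wild-type. Sex and Wnt4 loss cannot be told apart in this comparison, nor stage and Wnt4 loss in the testes. In Wnt4-null ovaries of P0, which carried 1 null copy of Foxl2, Runx1 read 1.94 to 2.32, above the 0.131 to 0.213 of these testes. The difference between those groups was not tested. Runx1 read 3.005, 2.70 and 4.20 in the wild-type ovaries of P0, with a mean of 3.30 ± 0.791 (SD, n = 3). The log2 change in testes was -4.23 ± 0.26 (adjusted p = 1.6e-14), or 18.8-fold lower. Again 5 of the 6 Runx1 probe sets fell, where 12.0% of all probe sets fell, and 1427650_a_at had a log2 change of -0.12 ± 0.25. For the reference probe set the testis-ovary difference did not change detectably from E13 to P0 (log2 -0.31 ± 0.37, 95% interval -1.06 to 0.44, adjusted p = 0.70). For 1452530_a_at, whose name marks it as one that can read several transcripts of the gene, the difference shrank by 1.75 ± 0.49 (adjusted p = 0.025), a shift of that sign being called for 2.63% of all probe sets. It read 0.00702, 0.0323 and 0.0827 in testes of E13 and 0.122, 0.13 and 0.157 in testes of P0, a rise of 1.84 ± 0.35 (adjusted p = 0.00018). No other Runx1 probe set was called between the testis stages, where 7.79% of all probe sets rose.

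Within wild-type and control ovaries no change of Runx1 was called between stages. From E13 to E16 the log2 change was 0.27 ± 0.26 (95% interval -0.26 to 0.80, adjusted p = 0.55), and from E16 to P0 it was -0.19 ± 0.26 (interval -0.72 to 0.34, adjusted p = 0.61). None of the 6 Runx1 probe sets was called at either step, against 7.51% and 29.7% of all probe sets. The median of all probe sets itself moved by 0.23 and -0.36 at these steps. The nearest to a call was 1452531_at, at 0.336 in ovaries of E16 and 0.160 at P0 (log2 change -1.05 ± 0.43, adjusted p = 0.061).

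Because Runx1 is also a gene of blood cells, blood cell markers were read beside these results. Of 12 macrophage genes, 4 fell and none rose in the testes of E13, beside 8.14% of all genes called either way, and their summed signal was 2.62 to 2.79, against 3.78 to 5.198 in the ovaries. The median log2 change of the macrophage list was -0.64, that of the 6 leukocyte genes -0.18, with none called, and that of all genes -0.04. At P0 none of the 12 macrophage genes was called, beside 28.9% of all genes, and the summed signals overlapped, at 4.36 to 6.44 in testes and 4.13 to 6.23 in ovaries. The ovarian supporting list, 11 genes with Foxl2, Fst, Irx3 and Rspo1 among them, moved with Runx1. At E13 all 11 fell, with a median of -2.35, and at P0 8 fell, with a median of -2.47. Of 6 surface epithelium genes 2 fell at E13 and 4 at P0, and of 6 germ cell genes 2 fell at each stage. The part of these markers in the Runx1 values was not tested.

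Cbfb, the partner subunit, was strong in every array and ran the other way. Its single probe set, 1460716_a_at, ranged from 3.04 to 6.64. Testes of E13 read 5.24, 5.15 and 5.37, and ovaries of E13 read 4.26, 4.60 and 3.54. The log2 change of 0.35 ± 0.12 in testes was not called (adjusted p = 0.066). At P0 testes read 6.64, 6.22 and 5.32 and ovaries 3.04, 3.19 and 3.47. Here Cbfb was higher in testes by 0.90 ± 0.12 (adjusted p = 2.9e-07), or 1.86-fold. The median of all probe sets in that comparison was 0.17. Sertoli genes moved with Cbfb, 6 of 10 rising in testes of E13 and 8 rising and 1 falling at P0, and their part in its value was not tested. The widening from E13 to P0 was 0.55 ± 0.17 (adjusted p = 0.037), and it lost its call when only the arrays of that comparison were fitted (adjusted p = 0.097). As the testes of P0 were Wnt4-null, sex and Wnt4 loss cannot be told apart in this P0 comparison, nor stage and Wnt4 loss in the widening. Wnt4-null ovaries of P0, which carried 1 null copy of Foxl2, read 4.07 to 4.71, between the wild-type ovaries and these testes. Their difference from the testes was not tested.

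Across the 15 groups Cbfb was highest in testes of P0 at 6.06, double-null ovaries at 5.33 and testes of E13 at 5.25, which overlapped with each other and stood clear of the rest. The Wnt4-null ovaries came next, at 4.68 for E15 and 4.47 for P0. The lowest groups were wild-type and Foxl2-null ovaries of P0, at 3.24 and 3.37. The correlation of the log2 group means of Cbfb and Runx1 was -0.84 over the 15 groups and -0.72 over the 13 ovarian ones, given as a description of means that share arrays and scaling.

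Runx3 was near the lower end of the signals in all groups. Its stronger probe set, 1440275_at, ranged from 0.0148 to 0.28 with a median of 0.0672, below the median of 0.256 of all probe set means. In testes it read 0.0436, 0.0511 and 0.0635 at E13 and 0.107, 0.136 and 0.28 at P0. This was a rise of 1.46 ± 0.50 (adjusted p = 0.037), which was not called with a pseudocount of 0.1% of the mean (adjusted p = 0.054), nor when any 1 of 5 of the 6 arrays was left out. The other probe set, 1421467_at, had a log2 change of 0.41 ± 0.43 over the same step. Macrophage genes rose in the same comparison, 6 of 12 beside 22.8% of all genes called either way, with the summed signal going from 2.62 to 2.79 at E13 to 4.36 to 6.44 at P0. Their part in the Runx3 value was not tested. As the testes of P0 were Wnt4-null, stage and Wnt4 loss cannot be told apart in this rise. Between testes and ovaries Runx3 had log2 changes of -0.56 ± 0.50 at E13 and 0.97 ± 0.50 at P0, neither called.

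**Figure D2:**
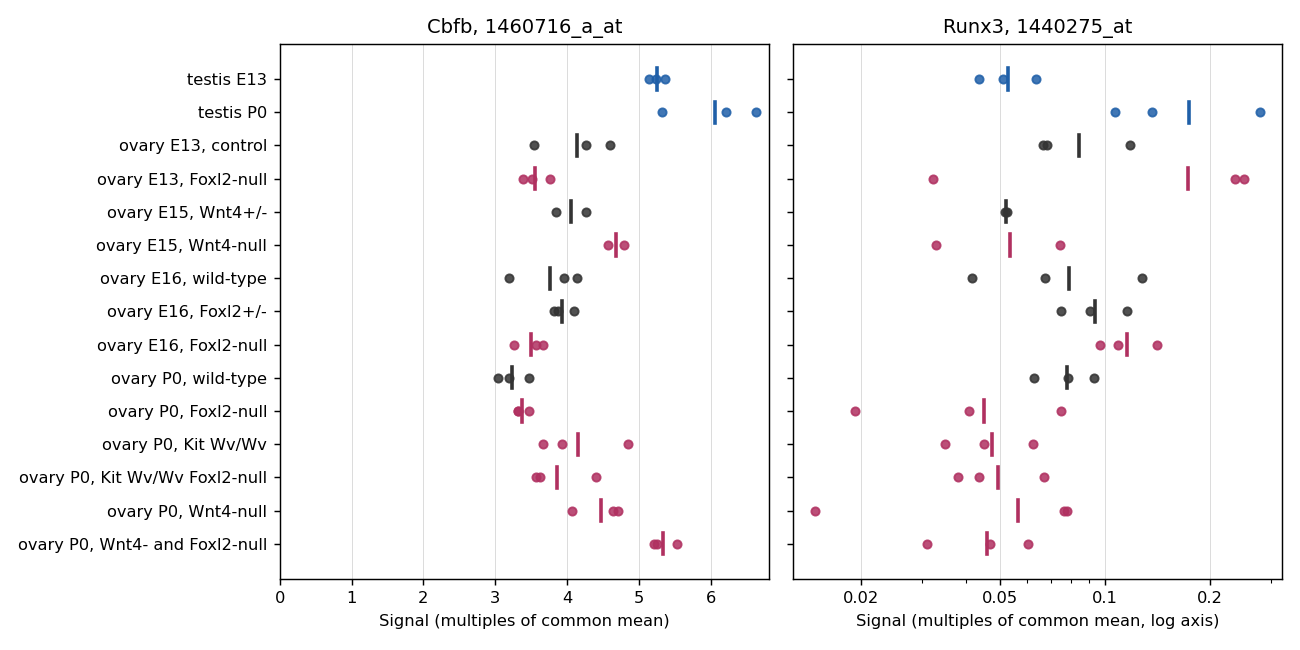
Signals of Cbfb (left, linear axis from 0) and Runx3 (right, log axis) as multiples of the mean array intensity, with points for the 43 arrays, bars for group means, testes in blue, null or Kit mutant ovaries in red and other ovaries in grey. Cbfb is above 5 only in testes and double-null ovaries, and Runx3 stays at or below 0.28 in all groups.

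Loss of Foxl2 alone did not lower Runx1 at any stage to the point of a call. In Foxl2-null ovaries of E13 Runx1 read 1.72, 2.94 and 3.17, against 3.14, 2.84 and 3.20 in controls. The log2 change was -0.27 ± 0.26 (95% interval -0.80 to 0.26, adjusted p = 0.61), and without the first null array, whose supporting list sum of 16.1 was the lowest of the 6 arrays, it was 0.00. At E16 null ovaries read 5.55, 3.92 and 4.95 and wild-type ovaries 4.06, 3.70 and 3.35, a log2 change of 0.37 ± 0.26 (interval -0.16 to 0.89, adjusted p = 0.94). At P0 null ovaries read 4.87, 6.22 and 4.73 against 3.005, 2.70 and 4.20. The arrays did not overlap, and the log2 change was 0.69 ± 0.26 (interval 0.16 to 1.22, adjusted p = 0.41). All 6 Runx1 probe sets had positive changes at P0, 4 of them with no overlap, at a background of 11.8% of all probe sets without overlap. None of the 9 probe sets of the Runx genes and Cbfb was called at E13, E16 or P0, where 2.06%, 0.407% and 0.604% of all probe sets were.

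Over the 3 stages together the Runx1 log2 change was 0.26 ± 0.15 (adjusted p = 0.44), with 1.54% of all probe sets called. The change of the Foxl2-null effect from E13 to P0 was 0.96 ± 0.37 (interval 0.21 to 1.71, adjusted p = 0.27) and positive for all 6 probe sets, none of them called, beside 0.32% of all. In Foxl2+/- ovaries of E16 Runx1 read 3.24, 4.21 and 3.61, a log2 change of -0.01 ± 0.26 from wild-type (adjusted p = 0.998), and 0.00667% of all probe sets were called. Cbfb had log2 changes of -0.21, -0.10 and 0.06 in the null ovaries of E13, E16 and P0 (SE 0.12 each, lowest adjusted p = 0.33). Runx3 read 0.237, 0.251 and 0.0322 in the nulls of E13 against 0.0683, 0.0668 and 0.119, so the third null array decided its value (0.61 ± 0.50, adjusted p = 0.55), which was 1.47 ± 0.46 (adjusted p = 0.041) without that array. In E16 nulls 2 of the 4 erythroid genes measured rose, with a list median of 2.59, beside 0.66% of all genes called. The supporting list, which contains Foxl2, had 1 gene that fell at E13 and at E16, and 1 that rose and 1 that fell at P0, where 0.825% of all genes were called.

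By its reference probe set Runx1 read lower in Wnt4-null ovaries at E15 and P0, without a call at either stage. At E15 Wnt4-null ovaries read 2.84 and 2.39 and Wnt4+/- ovaries 4.10 and 3.84. The log2 change was -0.60 ± 0.32 (95% interval -1.25 to 0.04, adjusted p = 0.45). Of the 6 Runx1 probe sets 5 had no overlap, 4 of them lower and 1452531_at higher, but with 2 arrays a group 43.5% of all probe sets had none. At P0 Wnt4-null ovaries read 2.26, 2.32 and 1.94 and wild-type ovaries 3.005, 2.70 and 4.20. The log2 change of -0.58 ± 0.26 (interval -1.11 to -0.05, adjusted p = 0.16) was not called. The weak probe set 1452531_at fell by 1.36 ± 0.43 (adjusted p = 0.030), from 0.160 to 0.0685. It was the 1 Runx1 probe set of 6 called, at a background of 12.7%, so that the count says little. Cbfb rose by 0.46 ± 0.12 (adjusted p = 0.0053), with 4.07, 4.71 and 4.64 in nulls and 3.47 as the highest wild-type array. At E15 Cbfb read 4.79 and 4.58 in nulls and 4.26 and 3.84 in Wnt4+/- ovaries (log2 change 0.21 ± 0.14, adjusted p = 0.61), and none of the 9 probe sets was called there, against 1.73% of all.

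Other cell markers moved with the loss of Wnt4. At P0 8 of the 11 supporting genes fell (median -1.07), 4 of 6 germ cell genes fell (median -1.70) and 2 of 12 macrophage genes rose (median 0.68). Of the 10 Sertoli genes 3 rose (median 0.67), namely Dhh by 4.92 ± 0.36, Cst9 by 3.26 ± 0.45 and Dmrt1 by 2.03 ± 0.49. Their summed signal was 7.51 to 9.11 in nulls and 3.18 to 3.71 in wild-type ovaries. Of the 6 endothelial genes Cdh5 rose, by 1.46 ± 0.16, and the sum was 8.81 to 9.43 against 4.25 to 5.71. The median of all genes was -0.03, and 16.9% of them were called. The summed macrophage signal was 7.15 to 8.05 in nulls and 4.13 to 6.23 in wild-type ovaries at P0, and 6.70 to 8.34 against 3.23 to 3.27 at E15, where 3 of 12 rose and 2.1% of all genes were called. Their part in the Runx1 and Cbfb values was not tested.

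In Kit Wv/Wv ovaries all 6 germ cell genes fell with a median of -4.52, and 30.6% of all genes were called. Runx1 read 3.88, 5.43 and 4.86 there. The log2 change from wild-type was 0.53 ± 0.26 (95% interval -0.00 to 1.06, adjusted p = 0.13), while the median of all probe sets was 0.28. All 6 Runx1 probe sets had positive changes and 2 rose, where 16.2% of all probe sets rose. These were 1452531_at, by 1.47 ± 0.43 (adjusted p = 0.011), and 1427650_a_at, by 0.68 ± 0.25 (adjusted p = 0.037). The mean of all Runx1 probe sets was called as well (0.70 ± 0.23, adjusted p = 0.022). Of the 11 supporting genes 5 rose, with a median of 0.78. So did 3 of 10 Sertoli genes (Cldn11, Cst9 and Sox9, sum 4.06 to 6.19 against 3.18 to 3.71 in wild-type ovaries), 3 of 6 endothelial genes (Cdh5, Tek and Tie1, sum 6.70 to 8.85 against 4.25 to 5.71) and 1 of 12 macrophage genes (C1qa, sum 5.64 to 6.45 against 4.13 to 6.23). Cbfb rose by 0.35 ± 0.12 (adjusted p = 0.025), with 3.66, 4.85 and 3.93 in the mutants, and this call was lost when arrays were centred on their 75th percentile (0.26 ± 0.11, adjusted p = 0.085). The part of these markers in the Runx1 and Cbfb values was not tested.

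Runx1 fell in ovaries that lacked both Foxl2 and Wnt4. Double-null ovaries read 0.456, 1.15 and 1.40, all below the Wnt4-null range of 1.94 to 2.32 and above the testis range of 0.131 to 0.213. Against Wnt4-null ovaries the log2 change was -1.26 ± 0.26 (adjusted p = 0.0093), or 2.39-fold lower. All 6 Runx1 probe sets had negative changes, 4 without overlap, which 17.4% of all probe sets also lacked. The reference was the 1 called, where 0.378% of all probe sets fell. The others with wide changes, from -1.05 ± 0.28 to -1.50 ± 0.43, had adjusted p-values of 0.068 to 0.13, and 1427650_a_at had -0.04 ± 0.25. Without the first double-null array, the lowest of the 3, the change was -0.77 ± 0.23 (adjusted p = 0.23), and without the second Wnt4-null array it was -1.21 ± 0.30 (adjusted p = 0.063).

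The effect of Foxl2 loss on Runx1 thus had opposite signs with and without Wnt4, and the test of that difference was called. By the reference probe set the interaction was -1.94 ± 0.37 (95% interval -2.69 to -1.19, adjusted p = 0.0069), where 0.0889% of all probe sets were called with a negative sign. It was negative for all 6 Runx1 probe sets, but of these only the reference was called. That call was kept when any 1 of the 12 arrays was left out (-2.26 to -1.46), but not when the 12 arrays were fitted alone (adjusted p = 0.077). The wild-type side of this contrast differs from the Wnt4-null side also in that Wnt4-null ovaries carried 1 null copy of Foxl2. In the Kit mutant, Foxl2 loss left Runx1 at 4.88, 5.55 and 3.33 (log2 change -0.06 ± 0.26, interval -0.59 to 0.47, adjusted p = 0.99). The interaction with the Kit mutation was -0.75 ± 0.37 (adjusted p = 0.84), with 0.0178% of probe sets called, and that of Foxl2 loss itself in the Kit mutant had 0.811% called and none of the 9.

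**Figure D3:**
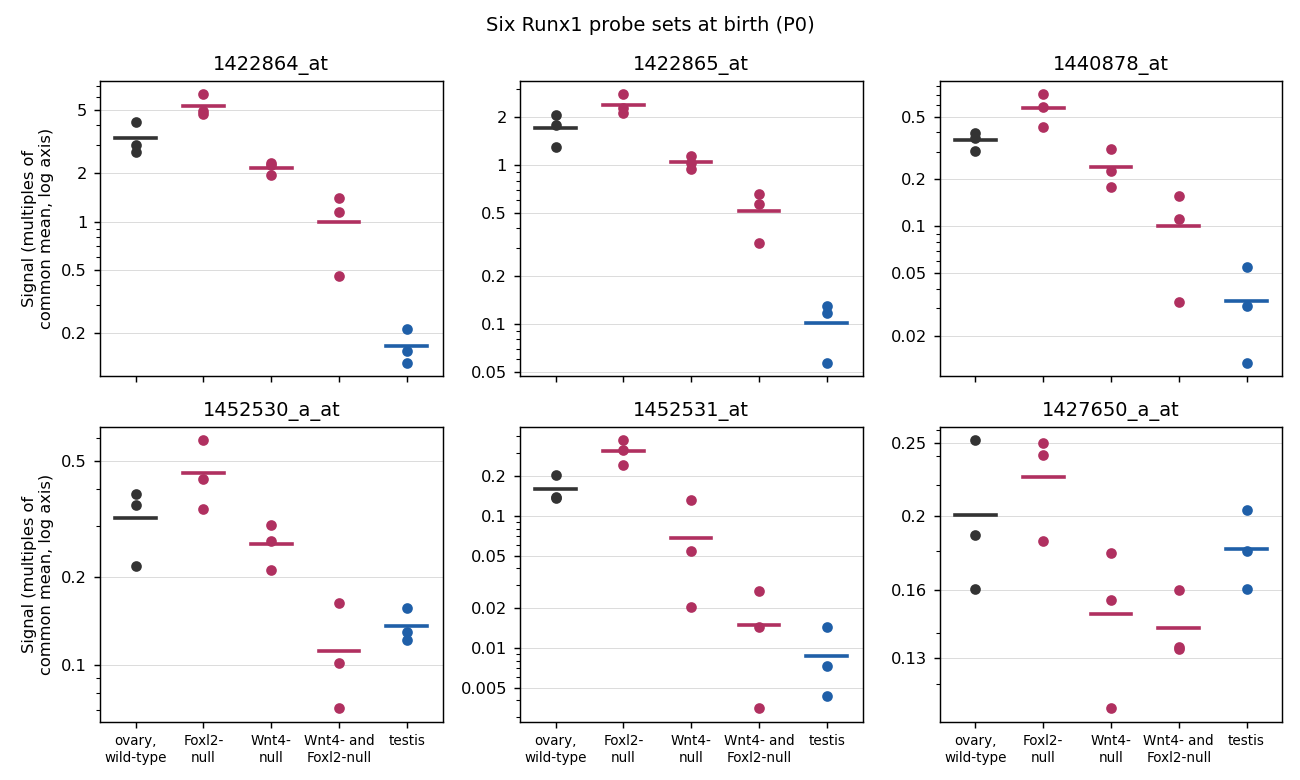
Signals at P0 of the 6 Runx1 probe sets (multiples of the mean array intensity, log axes that differ between panels) in wild-type, Foxl2-null, Wnt4-null and double-null ovaries and in testes, with points for arrays and bars for group means. In 5 panels the double-null mean lies below the Wnt4-null mean by over 1 on the log2 scale, whereas 1427650_a_at spans only 0.111 to 0.252.

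By the strongest probe sets the double-null ovaries did not reach the testis level of Runx1. The log2 difference from testes of P0 was 2.39 ± 0.26 (adjusted p = 2.8e-07), or 5.25-fold higher, and 1422865_at was higher by 2.25 ± 0.28 (adjusted p = 3.1e-06). These were 2 of 6 called, where 0.938% of all probe sets were higher. The probe sets 1452530_a_at (-0.32 ± 0.35, adjusted p = 0.74) and 1427650_a_at (-0.33 ± 0.25, adjusted p = 0.60) had negative values. Cbfb in double-null ovaries read 5.25, 5.53 and 5.21, with a log2 difference from testes of -0.18 ± 0.12 (interval -0.42 to 0.06, adjusted p = 0.53) and from Wnt4-null ovaries of 0.26 ± 0.12 (adjusted p = 0.49).

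Supporting cell and Sertoli markers changed in the same ovaries. Of the 11 supporting genes 4 fell against Wnt4-null ovaries (median -1.42), and of 10 Sertoli genes 4 rose (median 0.96), where the median of all genes was 0.03 and 0.924% of them were called. The summed supporting signal was 7.21, 9.86 and 10.1 in the 3 double-null arrays, 16 to 22 in Wnt4-null ovaries and 7.45 to 7.53 in testes of P0. The supporting list contains Foxl2 itself, whose mean was 0.749 in double-null and 5.46 in Wnt4-null ovaries. Part of the lower sum therefore follows from the genotype. The summed Sertoli signal was 20.4 to 21.7, against 7.51 to 9.11 in Wnt4-null ovaries. The 6 surface epithelium genes had none called, with sums of 1.71, 5.26 and 9.76 that overlapped the 7.60 to 9.85 of Wnt4-null ovaries, and the array with the lowest sum also had the lowest Runx1. The part of these markers in the Runx1 value was not tested.

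**Figure D4:**
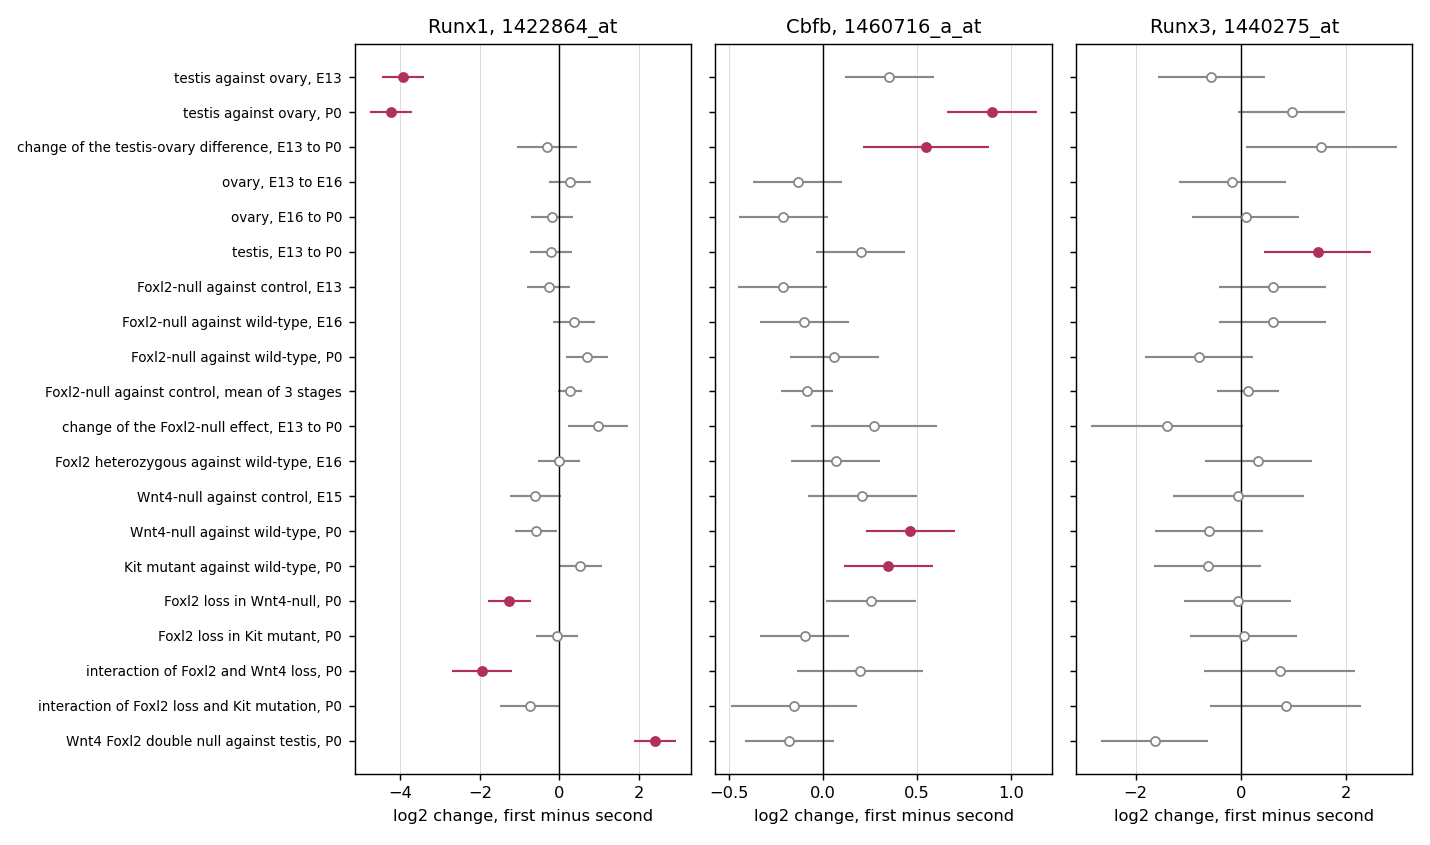
Log2 change with 95% interval of the reference probe sets of Runx1, Cbfb and Runx3 in the 20 comparisons (first group minus second, horizontal axes differ between panels), filled red where the adjusted p is under 0.05. Runx1 is called in 5 comparisons, from -4.23 to 2.39, Cbfb in 4, all positive, and Runx3 in 1.

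Genes that work with RUNX proteins were examined as lists. Of 16 corepressor genes 13 were measured. In testes of E13 only Hdac3, a histone deacetylase, was called, falling by 0.48 ± 0.13 (adjusted p = 0.021). With 8.14% of all genes called there, that count says little about the list. At P0 5 corepressors fell and 1 rose, or 6 of 13 beside 28.9% of all genes called. Tle6, a Groucho-related gene of oocytes, fell by 2.97 ± 0.26 and Tle2 by 1.26 ± 0.23, and Cbfa2t3, a gene of the ETO family, rose by 1.06 ± 0.26. The list median was -0.31, beside 0.07 for all genes. Tle6 fell as well in Wnt4-null ovaries of P0 (by 1.86 ± 0.26) and in Kit Wv/Wv ovaries (by 1.15 ± 0.26), in both of which germ cell genes fell too. In Wnt4-null ovaries Tle4 and Sin3a fell with it, 3 of the 13 beside 16.9% of all genes. In the Kit mutant, with 30.6% of all genes called, 4 corepressors rose and 3 fell, among them Tle4 (-1.73 ± 0.20) and Tle2 (1.34 ± 0.23).

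All 13 coactivator and modifier genes were measured. Wwtr1, a YAP-related coactivator, fell in testes of E13 by 0.60 ± 0.17 (adjusted p = 0.020), where 8.14% of all genes were called. At P0, with 28.9% of all genes called, Yap1 rose by 0.46 ± 0.13, and Cdk6 and Smurf1 fell by 0.54 ± 0.19 and 0.63 ± 0.21. Cdk6, a cell cycle kinase, also fell in Foxl2-null ovaries of E13, by 1.24 ± 0.19 (adjusted p = 0.00038), the 1 gene of the 4 RUNX lists called there, where 1.4% of all genes were called. In Wnt4-null ovaries of P0 Ep300 fell by 0.54 ± 0.16, where 16.9% of all genes were called. In the Kit mutant 6 of the 13 rose and 2 fell, beside 30.6% of all genes called. None of the 26 cofactor genes measured was called for Foxl2 loss at E16 or P0, for Foxl2 loss in Wnt4-null or Kit mutant ovaries, or between double-null ovaries and testes.

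Targets known from other tissues were examined in the same way. Of 11 measured blood targets of RUNX1, none was called between testes and ovaries of E13 (median -0.02), where 8.14% of all genes were called, so that the count says little about this list. At P0, where 28.9% of all genes were called, the neutrophil genes Elane and Csf3r were higher in testes by 1.16 ± 0.44 and 1.11 ± 0.32. Of 8 measured skeletal targets of RUNX2, none was called at E13, and at P0 Alpl, a phosphatase of bone and also of germ cells, and Col1a1, a collagen, rose in testes by 1.73 ± 0.28 and 0.58 ± 0.14. In Wnt4-null ovaries of E15 the blood target Csf1r rose by 1.34 ± 0.33 (adjusted p = 0.023), where 2.1% of all genes were called. The summed macrophage signal was higher there too, at 6.70 to 8.34 against 3.23 to 3.27, and its part in the Csf1r value was not tested. In the Kit mutant Elane rose by 1.39 ± 0.44 (adjusted p = 0.017), where 30.6% of all genes were called. In double-null against Wnt4-null ovaries neither list had a call, with medians of -0.10 and 0.09, where 0.924% of all genes were called.

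The genes whose group means most resembled those of Runx1 were mostly genes higher in ovaries than in testes. Pearson correlations of log2 group means over the 15 groups were taken for 10728 genes above the median signal. The highest was Foxl2os, a transcript from the strand opposite Foxl2, at 0.963, then Irx3, an Iroquois factor of pre-granulosa cells, at 0.960, Gxylt2 at 0.955, Gdpd2 at 0.954 and Rspo1, a secreted enhancer of WNT signalling, at 0.952. Podxl, Atp1b1, Kcnd2, Csgalnact1 and Lrrn1 followed, at 0.950 to 0.944. Foxl2 itself stood at 0.861, Fst at 0.905 and Wnt4 at 0.691. Over the 13 ovarian groups alone Gxylt2 stayed at 0.951, Gdpd2 and Atp1b1 at 0.906, whereas Irx3 was at 0.777 and Lrrn1 at 0.760. The most opposed genes were Fat1 at -0.939, Sel1l3 at -0.919, Synj2 at -0.913, Enpep at -0.908 and Rtn4rl1 at -0.907, and Sox9, the Sertoli cell factor, stood at -0.693. Group means share arrays and scaling, and the 2 testis groups carry much of these values.

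**Figure D5:**
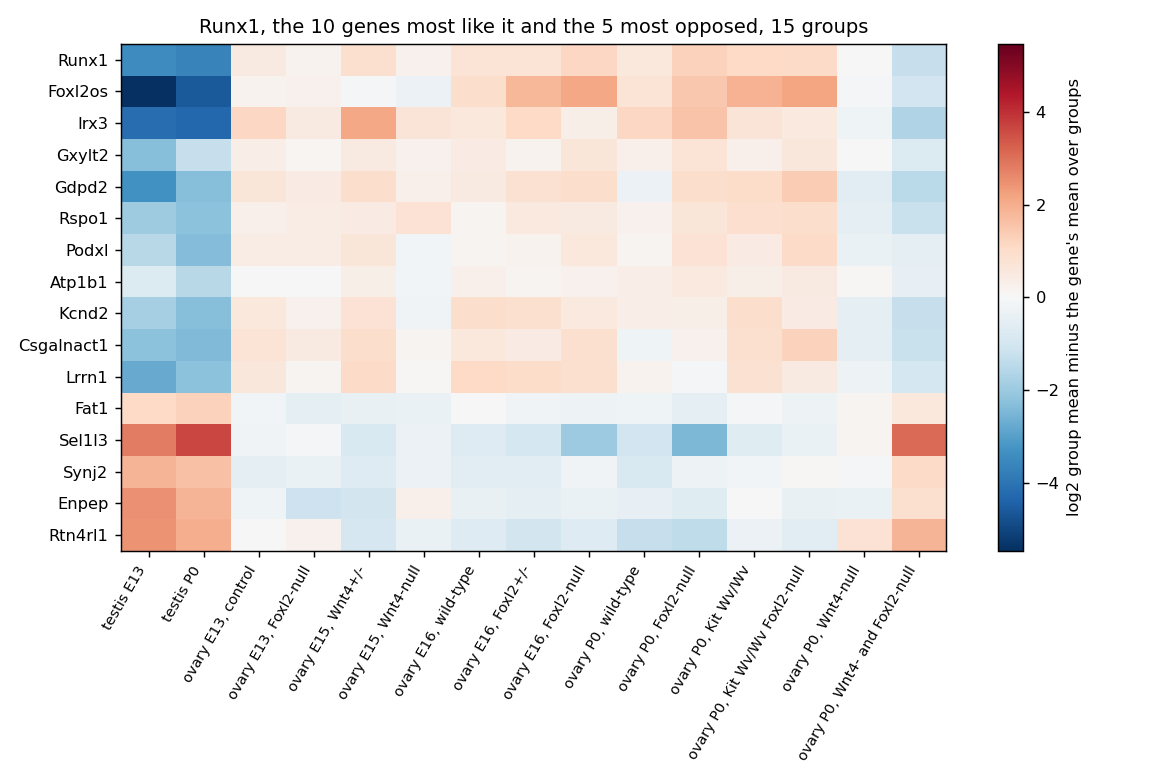
Log2 group means, each minus the gene's mean over groups (colour scale), of Runx1, the 10 genes most like it and the 5 most opposed to it in the 15 groups. The testis and double-null columns are low for the upper 11 rows and high for the lower 5.

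Among the Runx1 probe sets themselves, correlation with the reference over the 15 groups was 0.998 for 1422865_at, 0.970 for 1440878_at, 0.873 for 1452531_at, 0.851 for 1452530_a_at and 0.542 for 1427650_a_at. For Cbfb the most alike genes were Ralgps2 at 0.936, Stox2 at 0.910 and Fat3 at 0.909. For Runx3 they were Ppp2r2c at 0.810, Spint1 at 0.787 and Ttll9 at 0.754, and its 2 probe sets had a correlation of 0.146 with each other.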

How the data were processed

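RNA from gonads of individual mice was amplified and hybridised to Affymetrix mouse arrays. The deposited intensity values were linear and never negative, and all arrays have the same mean. The labels' processing notes name GCOS 1.3, whereas the study's methods describe normalization with plier in R followed by scaling to the global mean. The genome build behind the probe design is not given in the sources used here. Here each value was divided by the common mean, 0.01 (1% of it) was added and log2 taken. The 64 control probe sets were left out. limma 3.58.1 (R 4.3.3) fitted 15 group means to 43 arrays (lmFit, contrasts.fit, eBayes with a trend), and 20 comparisons were tested two-sided with Benjamini-Hochberg adjustment over 45007 probe sets. The fit was tested on simulated data. Depth has no meaning for arrays, and the number of arrays, 2 or 3 a group, limits the precision. p-values measure the spread between mice.

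Probe sets were named through the platform's annotation (34927 with 1 symbol, 930 with several, 9150 with none). For each of 18184 genes, the probe set of highest mean signal stood for the gene. Named genes were every probe set of Runx1, Runx2, Runx3 and Cbfb, the targeted genes, up to 4 called genes with the smallest adjusted p per list and comparison, the 10 genes most like and 5 most opposed to Runx1, and the 3 most like Cbfb and Runx3. Genes given to show what a list contains, or set beside these, were chosen after values were seen. Members and lists were chosen with earlier results of these data known. The 13 lists held cell markers, RUNX cofactors and known targets, of which 10 genes were not measured. Besides the results given in the report, 1 of 6 endothelial genes (Kdr) was higher in double-null ovaries than in testes of P0. Of 5 skeletal genes measured, Acan rose in testes, Wnt4-null and Kit mutant ovaries of P0, and Col2a1 fell in the Kit mutant.

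Replicate numbers were checked for pairing. Deviations of the E13 Foxl2-null and control arrays with the same number correlated at 0.132 to 0.158 in all 3 pairs, so a fit with the number as a block was run, and no other groups paired. Alternatives were pseudocounts of 0.1% and 5%, centring on the 75th percentile, quantile normalization, probe sets above the median only, the mean of a gene's probe sets, no trend, a fit on the comparison's arrays alone, the block, and leaving out each array.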

Additional observations from a re-analysis of the deposited data

Results flagged for a closer look

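Differences between groups or stages passed the limma test for 3 values of these genes. The interaction of Foxl2 and Wnt4 loss for the Runx1 reference probe set was -1.94 ± 0.37 (adjusted p = 0.0069), with Foxl2 loss giving 0.69 in ovaries with Wnt4 and -1.26 in ovaries without it. No other Runx1 probe set was called for it. The testis-ovary difference of the Runx1 probe set 1452530_a_at changed by 1.75 from E13 to P0, while the reference probe set changed by -0.31 (adjusted p = 0.70). That of Cbfb changed by 0.55. Both of these changes rest on testes of P0 that were Wnt4-null, so stage and Wnt4 loss cannot be told apart in them. With 2 or 3 arrays a group, single arrays were not tested for standing apart.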

How the results depend on the processing

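The falls of Runx1 in testes at E13 and P0, its level in double-null ovaries above testes, the Cbfb differences at P0 between sexes and in Wnt4-null ovaries kept direction and call under every alternative run. The replicate block changed no call. With it Runx1 in Foxl2-null ovaries of E13 was -0.27 ± 0.26 (adjusted p = 0.60), and all probe sets called there went from 928 to 1748 and for the change of the Foxl2 effect from 144 to 310.

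With the mean of a gene's probe sets, Runx1 reversed for the change of the testis-ovary difference (0.29) and for testes from E13 to P0 (0.25), both uncalled. The Runx3 rise in testes became 0.93, uncalled, and the Kit change of Runx1 became 0.70, called. A pseudocount of 0.1% gave Runx3 1.60, uncalled. Centring on the 75th percentile gave Runx1 0.0183 in Foxl2+/- ovaries and Cbfb 0.26 in the Kit mutant, both uncalled. Fitting the comparison's arrays alone left 4 values in place but uncalled, the Cbfb change of 0.55 and Kit change of 0.35, and Runx1 at -1.26 for Foxl2 loss without Wnt4 (adjusted p = 0.11) and -1.94 for the interaction. Without the trend the same 2 Cbfb values were uncalled (adjusted p = 0.084 and 0.051).

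Leaving out 1 array at a time, the Runx1 value of Foxl2 loss without Wnt4 ranged from -1.57 to -0.77 (called in 4 of 6), the Cbfb change from 0.47 to 0.65 (3 of 12), the Kit change of Cbfb from 0.23 to 0.43 (3 of 6) and the Runx3 rise in testes from 1.08 to 1.73 (1 of 6). Uncalled values that changed sign were Runx1 in Foxl2-null ovaries of E13 (-0.44 to 0.000377), in Foxl2+/- ovaries (-0.11 to 0.0778) and for Foxl2 loss in the Kit mutant (-0.21 to 0.15). So did Cbfb in Foxl2+/- ovaries (-0.0451 to 0.14) and for Foxl2 loss in the Kit mutant (-0.19 to 0.0204). Runx3 changed sign in ovaries from E13 to E16 (-0.54 to 0.17) and E16 to P0 (-0.24 to 0.47), over the Foxl2-null stages together (-0.0127 to 0.43), in Foxl2+/- ovaries (-0.00839 to 0.70), in Wnt4-null ovaries of E15 (-0.54 to 0.44), and for Foxl2 loss in Wnt4-null (-0.67 to 0.24) and Kit mutant ovaries (-0.15 to 0.23). The cause was not tested.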
